A study of Homo sapiens with 18 samples.

Results

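The genes of Integrator, the complex whose nuclease INTS11 was depleted in this study, were examined for RNA polymerase II (Pol II) at their own loci. The 10 genes were taken by symbol (INTS1, INTS2, INTS4, INTS5, INTS6, INTS7, INTS8, INTS9, INTS11 and INTS12), out of 19974 protein-coding genes in a RefSeq table of GRCh38.p14. For each gene all peaks with a summit between 5 kb before one end and 5 kb beyond the other were taken. No value measured in these libraries was used to choose them.

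Integrator is a large complex that binds Pol II held shortly after the start of a gene. Its cleavage module cuts the nascent RNA. INTS11 is the endonuclease of that module, INTS9 its catalytically inactive partner and INTS4 the scaffold that holds both. INTS1, INTS2 and INTS7 form the backbone together with INTS12, a subunit with a PHD finger. INTS5 and INTS8 form the shoulder, and INTS6 joins a protein phosphatase 2A (PP2A) core to the complex, which removes phosphates from the C-terminal domain of Pol II. The complex also forms the ends of small nuclear RNAs.

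The cells were HCT116, a human colon cancer cell line, and all libraries came from its INTS11-AID derivative, whose INTS11 is fused to a degron that auxin activates. Control cells thus carry the tag as well. IAA is auxin, which triggers destruction of the tagged protein. Chromatin immunoprecipitation followed by sequencing was done with antibodies against Pol II and against 2 phosphorylated forms of its C-terminal domain, at tyrosine 1 (Tyr1P) and at serine 2 (Ser2P), a mark known from elongating Pol II. There were 2 numbered IAA and 2 numbered Control libraries for each antibody. The protocol text, which is the same for every library, names serum withdrawal (14 h), IAA (500 µM, 1 h), the growth factor EGF (100 ng per µl, 30 min) and interferon beta (2000 U, 1 h), without saying which library received what. Groups were therefore taken from the titles. A further 4 Pol II libraries carry no replicate number and are labelled IAA, EGF, IAA+EGF and Control, 1 each. For the ones labelled IAA and EGF the title and the name of the deposited file give different treatments, so they are called by their labels and enter no count of members unless stated. There were also 2 input libraries. Nothing in the labels says whether numbered libraries came from separate cultures, so their spread may be technical. The degron acts on the protein, so no value here measures the loss of INTS11.

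The lists held 15420 to 99476 peaks in the immunoprecipitated libraries and 1579 and 1004 in the inputs. They hold no read totals, so the depth is unknown. The Ser2P lists differed most in length, with 99476 and 88987 peaks in IAA and 37442 and 15420 in Control. No input peak fell in the window of any of the 10 genes. Of 5 epithelial marker genes, EPCAM, KRT8, KRT19 and CDH1 had a peak within 1 kb of a gene end in 16 of 16 immunoprecipitated libraries and KRT18 in 15. Among markers of other cells, PTPRC, COL3A1, DCN and ALB had one in 0 libraries, CD3E in 1, HBB and SNAP25 in 2, COL1A1 in 5, RBFOX3 in 13, APOA1 in 15 and SYP in 16.

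The genes lie on 7 chromosomes and span 6.455 kb (INTS5) to 122.309 kb (INTS9), with a median of 60.5 kb against 24.2 kb for all protein-coding genes. Of the 10, 4 have a protein-coding neighbour that starts within 191 bp on the other side of their own start. INTS11 starts 142 bp from CPTP, which encodes a ceramide-1-phosphate transfer protein. INTS9 starts 147 bp from HMBOX1, a homeobox gene, INTS12 starts 95 bp from GSTCD, and INTS7 starts 191 bp from DTL, the substrate receptor of a ubiquitin ligase. A peak at such a start can belong to either gene. The RefSeq promoter table held 7 of the 10 genes, all on the minus strand. For INTS5, INTS8 and INTS9 the start was set by Pol II summits within 1 kb of an end in at least 6 of the 8 Pol II libraries. An end within 1 kb of another gene's listed start was set aside. INTS5 carried Pol II at both ends, and the one by the start of GANAB was set aside. HMBOX1 had no listed direction, so this rule could not act at INTS9.

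The bases between paired starts are shown for 3 of these genes, because the position of the Pol II summit on either side of them is what the results below turn on. The 250 bases before INTS1 are shown because its Pol II start peak was absent with IAA. Each runs 5′ to 3′ on the strand of the Integrator gene and ends at the base before its start. Capitals mark matches on either strand to CCAAT (a box bound by NF-Y), GGGCGG (a GC box), CGGAAG (a core bound by ETS factors) or TGACGT (a core bound by CREB factors). TATAAA was searched as well and had no match in these 4 stretches.
INTS11 to CPTP, chr1:1324661-1324801, minus strand: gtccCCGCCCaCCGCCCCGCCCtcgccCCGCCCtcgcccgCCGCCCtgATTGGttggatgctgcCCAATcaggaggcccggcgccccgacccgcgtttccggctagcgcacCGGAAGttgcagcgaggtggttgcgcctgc
INTS12 to GSTCD, chr4:105708690-105708783, minus strand: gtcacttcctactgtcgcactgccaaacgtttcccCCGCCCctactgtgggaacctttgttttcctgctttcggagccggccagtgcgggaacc
INTS7 to DTL, chr1:212035558-212035747, minus strand: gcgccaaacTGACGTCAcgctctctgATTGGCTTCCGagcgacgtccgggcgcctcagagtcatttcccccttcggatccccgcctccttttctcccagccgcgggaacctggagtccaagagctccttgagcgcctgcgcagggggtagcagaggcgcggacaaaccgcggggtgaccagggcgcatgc
INTS1, chr7:1504390-1504639, minus strand: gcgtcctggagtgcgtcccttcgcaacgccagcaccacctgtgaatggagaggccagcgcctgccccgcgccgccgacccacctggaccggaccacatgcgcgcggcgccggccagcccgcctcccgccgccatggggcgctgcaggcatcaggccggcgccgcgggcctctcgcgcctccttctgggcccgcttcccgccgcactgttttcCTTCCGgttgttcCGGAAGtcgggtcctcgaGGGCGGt

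The stretch between INTS11 and CPTP held 5 GC boxes and a pair of CCAAT boxes on opposite strands within 75.2% G and C. In windows of that length before 35116 RefSeq starts, 36.0% held a GC box, 22.7% a CCAAT box and 12.1% the ETS core, which it also held. The 94 bases between INTS12 and GSTCD held 1 GC box, as did 30.4% of windows of that length. The stretch between INTS7 and DTL held the CREB core on both strands, overlapping as a palindrome (6.12% of windows of that length hold the core), and a CCAAT box directly beside an ETS core (27.0% and 14.2% of such windows). INTS1 held the ETS core on both strands and 1 GC box (16.5% and 42.6% of windows of 250 bases). These matches describe letters and show no binding.

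Peaks were compared within each antibody by 4 measures. The covered share is the percent of the gene window lying under peaks. The standing is the percentile, with 100 for the strongest, of the gene's strongest peak within 1 kb of a gene end, by the deposited −log10 q. It was taken among the genes that hold such a peak in all 4 libraries, so that the ranked set has 1 size in all lists. The summit place is the distance of the strongest start peak's summit from the gene start, positive inside the gene, and the fourth measure is the presence of peaks. A gene is called higher or lower where both IAA values lie on the same side of both Control values. An exact two-sided permutation test of 2 libraries against 2 cannot go below p = 0.333, so no gene can pass a threshold of 0.05. The share of all genes called in the same way is given beside the counts made under these settings. Counts under altered settings or with added libraries have no such share. The deposited fold is the authors' enrichment at a summit within its own list and is given as a description.

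The INTS11 gene itself (chromosome 1, 1311600 to 1324660) encodes the depleted nuclease. All 4 numbered libraries held a Pol II peak with a summit within 1 kb of the gene's start. Its fold was 4.7 and 4.6 in IAA, against 7.5 and 7.1 in Control. Its standing for Pol II was 16.5 and 14.5 in IAA and 24.3 and 22.6 in Control, lower in both IAA libraries. For Tyr1P the standing was 14.0 and 21.5 in IAA and 37.8 and 27.9 in Control, again without overlap. In all 4 libraries the Pol II summits lay beyond the start of CPTP. They lay 248 and 256 bp before INTS11 in IAA and 219 and 213 bp before it in Control. The peak of IAA replicate 1 was 210 bp wide and did not reach the start of INTS11. These Pol II folds and standings thus cannot be assigned to INTS11 rather than to CPTP. In the 4 unnumbered Pol II libraries the summit lay instead 68 (IAA), 71 (EGF), 72 (IAA+EGF) and 79 bp (Control) inside INTS11. Ser2P gave a start peak in the IAA libraries only, with summits 228 and 302 bp upstream and folds of 2.5 and 2.1. The gene held 0 interior Ser2P peaks in all 4 libraries. Further Ser2P peaks lay about 3 kb beyond its end, by PUSL1 and ACAP3, in all 4 libraries.

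INTS9 (chromosome 8, 28767661 to 28889969), the inactive partner of INTS11, had the largest difference in Pol II standing of the 9 genes ranked. Its standing was 96.7 and 97.6 in IAA, against 15.7 and 14.7 in Control. For Tyr1P it was 87.7 and 89.2 in IAA, against 24.6 and 27.9 in Control. In IAA these values come from a peak on the HMBOX1 side. In Control the strongest start peak lay on that side in replicate 2 and inside INTS9 in replicate 1, for both antibodies. On the HMBOX1 side the Pol II fold was 17.3 and 21.4 in IAA, against 6.1 and 8.5 in Control, at summits 530 and 512 bp before INTS9 in IAA and 486 and 562 bp before it in Control. On the INTS9 side the order was the opposite, with a Pol II fold of 4.8 and 4.0 in IAA and 8.3 and 8.1 in Control. The summits on that side lay 112 and 136 bp inside INTS9 in IAA and 80 and 91 bp inside in Control. Tyr1P gave the same picture on the INTS9 side, with folds of 6.7 and 5.7 in IAA and, as a merged peak of 1006 bp in replicate 1, 10.4 and 9.2 in Control. The high standing in IAA thus belongs to the peak beyond the start of HMBOX1 and not to the one inside INTS9.

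INTS4 (chromosome 11, 77874362 to 77994668), the scaffold of the cleavage module, carried 1 broad Tyr1P start peak in Control and a pair of narrow ones in IAA. The Control peaks were 969 and 982 bp wide, with the summit 507 and 501 bp upstream. In IAA the peaks inside the gene were 406 and 371 bp wide, with summits at 39 and 79 bp, and the ones upstream 322 and 392 bp wide, with summits 476 and 521 bp before the start. Pol II showed a peak of 287 and 331 bp at 69 and 81 bp inside in IAA, and peaks of 903 and 855 bp with summits at -506 and 45 bp in Control. The Tyr1P standing was 34.0 and 45.6 in IAA and 47.0 and 52.0 in Control, lower in both IAA libraries, while the Pol II standing overlapped. The RefSeq table lists INTS4P1 and INTS4P2, pseudogene copies of INTS4 on chromosome 7, and INTS6P1 on chromosome 5. How reads with several matches were treated is not given in the sources used here.

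**Figure D1:**
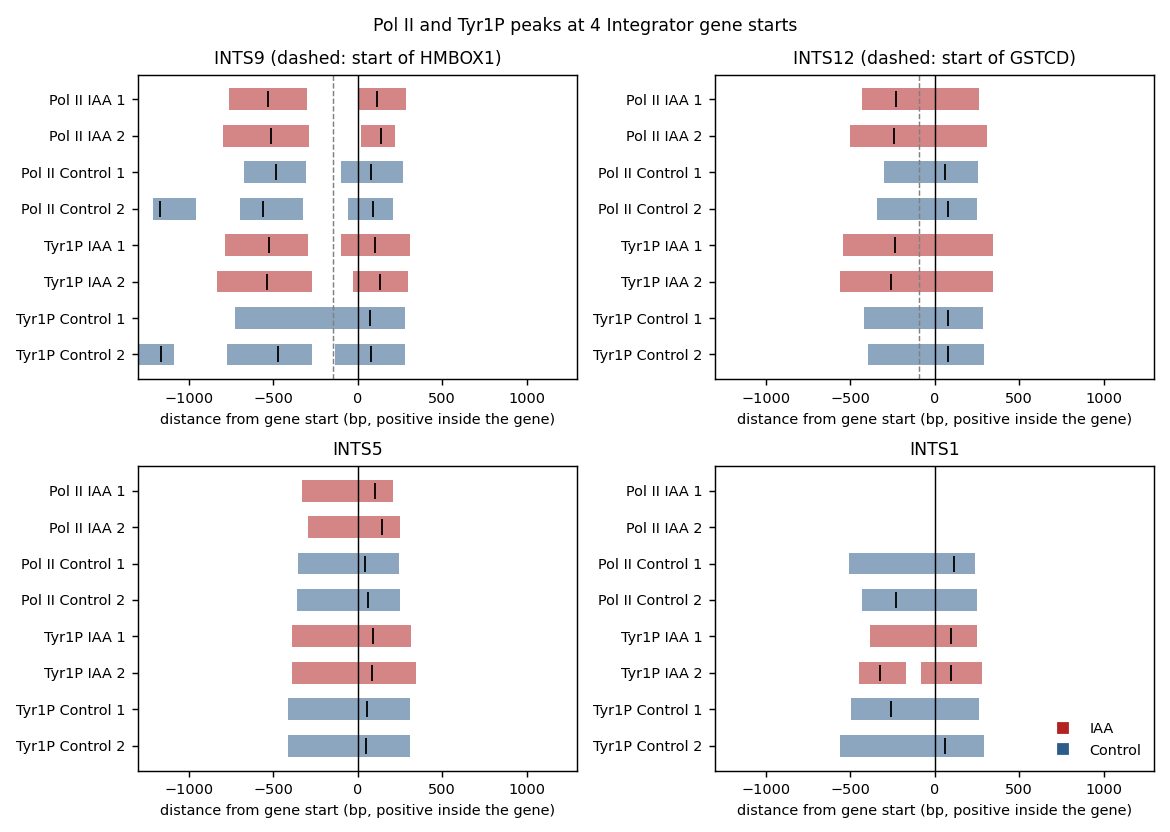
Pol II and Tyr1P peaks (bars) and their summits (black ticks) by distance from the gene start in bp, positive inside the gene, at INTS9, INTS12, INTS5 and INTS1 in each numbered IAA (red) and Control (blue) library. At INTS12 the summit lies beyond the start of GSTCD in the IAA libraries and inside INTS12 in the Control libraries, and INTS1 has no Pol II start peak in the 2 IAA libraries.

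INTS1 (chromosome 7, 1470277 to 1504389), the largest backbone subunit, was the 1 gene of the 10 without a Pol II start peak in either IAA library. In Control the peak was 743 and 682 bp wide, with folds of 6.7 and 8.2. IAA replicate 1 held only a peak of 225 bp, 2664 bp upstream, and IAA replicate 2 held none in the window. INTS1 also had no Pol II peak at its other end in IAA. Of all genes with a peak at either end in both Control libraries, 5.28% had none at either end in both IAA libraries. The covered share of INTS1 was 0.510% and 0% in IAA, against 1.68% and 1.55% in Control. Tyr1P kept a start peak in all 4 libraries, with folds of 6.6 and 5.2 in IAA and 10.6 and 9.1 in Control. All 4 unnumbered Pol II libraries held a start peak at INTS1, with folds of 9.8 (IAA), 8.4 (EGF), 9.3 (IAA+EGF) and 10.1 (Control). Those lists were longer, at 28094 to 36003 peaks against 18263 and 23609 in the numbered IAA lists. With the numbered Pol II lists all cut to their 17707 strongest peaks, INTS1 still lacked a peak at either end in both IAA libraries. Its Control start peaks, at ranks 11293 and 9141, stayed within that cut. The part of list length in the difference from the unnumbered libraries was not tested.

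INTS2, another backbone subunit (chromosome 17, 61865367 to 61927982), had a Pol II fold of 10.1 and 11.6 in IAA, against 18.3 and 16.3 in Control. Its Pol II standing was 83.6 in both IAA libraries and 93.9 and 89.8 in Control, without overlap. The Tyr1P standing overlapped, at 97.5 and 94.1 in IAA and 95.7 and 96.6 in Control. A separate peak about 2 kb beyond the end of INTS2 lies at the start of BRIP1, a DNA helicase gene, and was present in all 16 immunoprecipitated libraries. At INTS7 (chromosome 1, 211940403 to 212035557) the Pol II standing was 65.5 and 70.4 in IAA and 46.1 and 15.1 in Control. IAA replicate 2 and Control replicate 2 each placed a further peak on the DTL side, 254 bp before INTS7 in IAA and 266 bp before it in Control. The Pol II summits inside INTS7 lay at 130 and 161 bp in IAA and 106 and 115 bp in Control, and those of Tyr1P at 138 and 177 bp in IAA and 78 and 76 bp in Control. The Tyr1P standing of INTS7 overlapped between the groups.

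INTS12, the PHD finger subunit (chromosome 4, 105682627 to 105708689), differed by the side of the shared promoter that held the summit. For Pol II the summit lay 229 and 244 bp before INTS12 in IAA, on the GSTCD side, and 63 and 77 bp inside INTS12 in Control. For Tyr1P it lay 233 and 258 bp before INTS12 in IAA and 76 and 75 bp inside it in Control. The peak spanned both starts in all 8 libraries and was wider in IAA. For Pol II the width was 694 and 813 bp in IAA, against 556 and 592 bp in Control, and for Tyr1P 892 and 906 bp in IAA, against 704 and 686 bp in Control. The Pol II standing was 86.8 and 88.7 in IAA and 64.8 and 63.8 in Control, and that of Tyr1P 82.6 and 90.2 in IAA and 79.1 and 69.6 in Control. A single peak across 2 starts gives 1 standing to both genes, so these higher values cannot be assigned to INTS12. For Ser2P the summit stayed inside INTS12, at 107 and 101 bp in IAA and 100 and 28 bp in Control.

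INTS5, a shoulder subunit and the shortest gene of the 10 (chromosome 11, 62646848 to 62653302), had the largest downward difference for Pol II and Tyr1P when genes were ranked by the start peak alone, a ranking added after seeing the data. The fold of its Pol II start peak was 5.5 and 6.4 in IAA, against 16.1 and 20.1 in Control. Ranked on the start peak alone, its Pol II standing was 29.5 and 31.5 in IAA, against 89.5 and 96.9 in Control. For Tyr1P it was 62.7 and 51.5 in IAA, against 91.6 and 97.6 in Control. For Ser2P it was 61.1 and 63.5 in IAA, against 91.5 in both Control libraries. The share of genes lower by this ranking was 35.9% for Pol II, 37.1% for Tyr1P and 29.1% for Ser2P. About 6.7 kb from the start of INTS5, at its other end, lies the start of GANAB, which encodes a glucosidase subunit. There the Pol II fold was 11.1 and 14.1 in IAA, against 10.7 and 10.4 in Control. Because the standing by either end takes the stronger of these peaks, INTS5 counts as higher for Ser2P by that measure and as lower by its start peak.

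INTS8, the other shoulder subunit (chromosome 8, 94823287 to 94881746), had Pol II standings of 74.4 and 39.8 in IAA and 59.9 and 82.1 in Control, which overlapped. Its Tyr1P standing was 80.8 and 79.3 in IAA and 89.5 and 86.5 in Control, lower in both IAA libraries. For Ser2P the order was the opposite, 90.6 and 91.3 in IAA and 87.8 and 79.8 in Control. INTS6, which anchors the phosphatase (chromosome 13, 51334405 to 51453036), stood highest of the 10 for Pol II in all 4 libraries. Its standing was 99.53 and 99.58 in IAA and 99.43 and 99.28 in Control, a difference of 0.200 percentile points that meets the rule for higher but is small. The Pol II peak was 872 and 1227 bp wide in IAA. In Control it was 489 and 425 bp wide, with a second peak 393 and 407 bp before the start.

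Over the 10 genes the numbers higher and lower lay near those of all genes. For Pol II, standing was higher in IAA at 4 of the 9 ranked genes (INTS6, INTS7, INTS9 and INTS12), against 35.5% of all ranked genes, and lower at 3 (INTS2, INTS5 and INTS11), against 35.9%. INTS1 had no rank. For Tyr1P it was higher at 3 of 10 (INTS6, INTS9 and INTS12), against 35.6%, and lower at 3 (INTS4, INTS8 and INTS11), against 36.9%. For Ser2P it was higher at 3 of 7 (INTS5, INTS8 and INTS12), against 31.3%, and lower at 2 (INTS6 and INTS7), against 29.8%. The median difference, IAA minus Control, was 0.200 percentile points for Pol II, -0.804 for Tyr1P and 0.0399 for Ser2P. Over all ranked genes it was -0.0871, -0.0690 and 0.393 in the same order. Among the 9 partners of INTS11, of which 8 were ranked for Pol II, standing was higher at 4 and lower at 2. Of the higher ones, INTS9 owes its value to the peak on the HMBOX1 side. That of INTS12 cannot be assigned to it rather than to GSTCD, and that of INTS6 differed by 0.200 points. Of the lower ones, INTS5 took its IAA value, 81.7 and 88.3, from the peak at the GANAB end. By its start peak INTS5 was lower as well. INTS11, lower but not a partner, had its Pol II summits beyond the start of CPTP. Whether partner genes gained Pol II when INTS11 was depleted was the question of this count, and the genes did not share a direction.

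**Figure D2:**
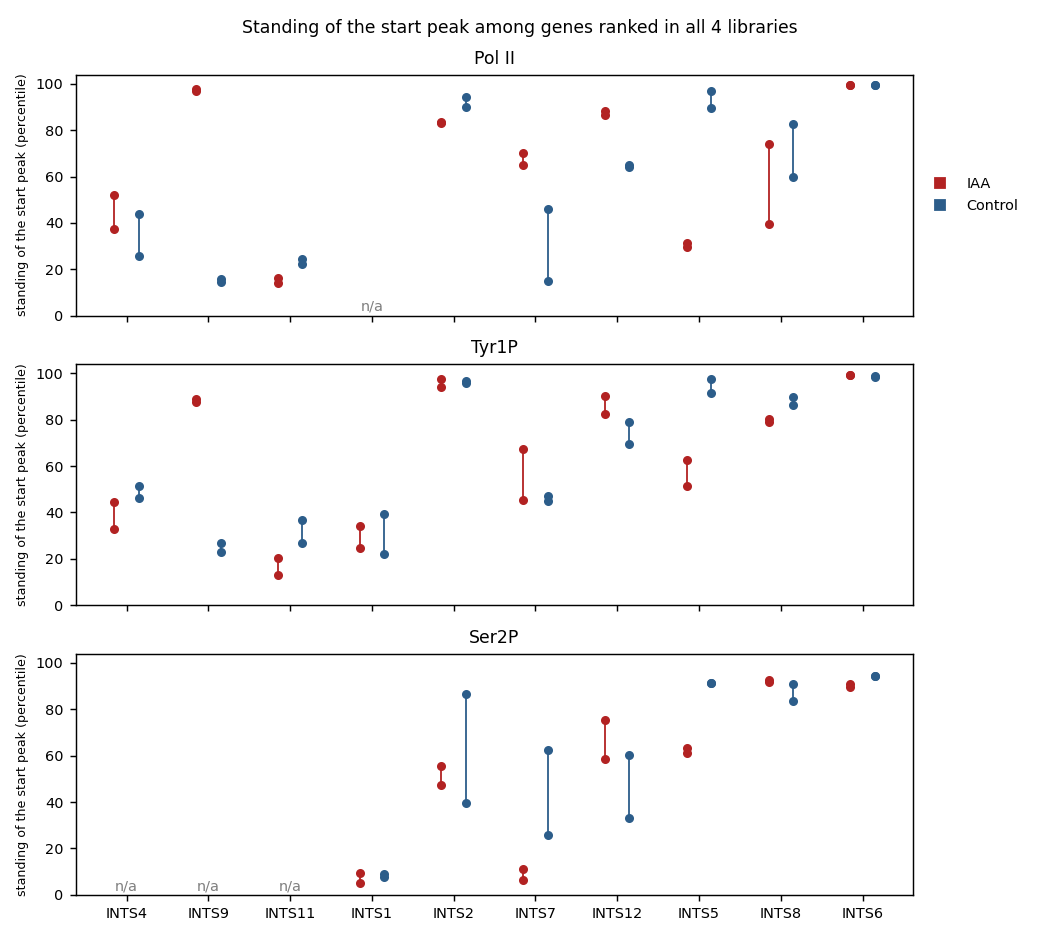
Standing by the start peak alone, without peaks at the other gene end (percentile, 100 is strongest) of each Integrator gene in each IAA (red) and Control (blue) library, for Pol II, Tyr1P and Ser2P, with the 2 libraries of a group joined by a line and n/a where a gene lacked a start peak in at least 1 of the 4 libraries. INTS9 stands at 96.8 and 97.7 in IAA and 15.6 and 14.3 in Control for Pol II, and INTS5 at 29.5 and 31.5 in IAA and 89.5 and 96.9 in Control.

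The order of the 10 genes by start standing also shows how far neighbours are apart. In IAA the Pol II order ran INTS6, INTS9, INTS12, INTS2, INTS7, INTS8, INTS4, INTS5 and INTS11. The ranges of the 2 IAA libraries overlapped between INTS7 and INTS8 and between INTS8 and INTS4 and between no other neighbours. In Control the order ran INTS6, INTS5, INTS2, INTS8, INTS12, INTS4, INTS7, INTS11 and INTS9. There 4 of the 8 neighbouring pairs overlapped. INTS9 was the second in IAA and the last in Control, and INTS5 the eighth in IAA and the second in Control.

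Start summits lay further inside the gene with IAA at 6 of 9 genes for Pol II (INTS2, INTS4, INTS5, INTS6, INTS7 and INTS8), against 47.5% of all genes, and further upstream at 2 (INTS11 and INTS12), against 23.5%. For Tyr1P they lay further inside at 6 of 10 (INTS1, INTS4, INTS5, INTS6, INTS7 and INTS8), against 46.9%, and further upstream at 2 (INTS9 and INTS12), against 22.0%. In IAA the upstream summits so counted at INTS11, INTS12 and INTS9 lay beyond the starts of CPTP, GSTCD and HMBOX1. They can thus belong to those neighbours. For Ser2P it was 3 of 7 further inside (INTS1, INTS8 and INTS12), against 30.3%, and 1 further upstream (INTS7), against 16.4%. The median difference for Pol II was 35 bp, with 32 bp over all genes, and for Tyr1P 24.8 bp, with 23 bp over all genes. At INTS6 the Pol II summit lay at 91 and 99 bp in IAA and 34 and 43 bp in Control, at INTS5 at 103 and 142 bp in IAA and 44 and 64 bp in Control, and at INTS2 at 110 and 139 bp in IAA and 40 and 57 bp in Control.

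The covered share for Pol II was lower in IAA at 1 of 10 genes, INTS1, against 34.7% of all genes, and higher at 0, against 14.9%. For Tyr1P it was lower at 4 (INTS1, INTS4, INTS7 and INTS9), against 42.6%, and higher at 2 (INTS2 and INTS5), against 15.7%. At INTS7 the Tyr1P share was 0.683% and 0.814% in IAA and 1.12% and 1.27% in Control. Start peaks were 10 of 13 and 12 of 19 Pol II peaks in IAA and 12 of 15 and 13 of 20 in Control. For Tyr1P they were 13 of 22 and 13 of 19 in IAA and 11 of 18 and 12 of 25 in Control. Interior Pol II peaks numbered 0 and 1 over all 10 genes in IAA and 0 and 1 in Control. Interior Tyr1P peaks numbered 5 and 1 in IAA and 2 and 4 in Control, and those of INTS6 at about 11 kb were the ones found in all 4 libraries.

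Ser2P differed between the groups along the bodies of these genes. The 10 windows held 98 and 88 Ser2P peaks in IAA and 37 and 14 in Control. Of these, 68 and 60 in IAA and 13 and 2 in Control were interior, that is more than 1 kb inside both gene ends. The mean was 64.0 ± 5.66 in IAA and 7.50 ± 7.78 in Control (SD, n = 2 each), with no overlap (exact two-sided permutation p = 0.333, the smallest this design gives). The IAA lists as a whole were also longer, by the totals given above. The same windows held 13 and 19 Pol II peaks in IAA and 15 and 20 in Control, and 22 and 19 Tyr1P peaks in IAA and 18 and 25 in Control.

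**Figure D3:**
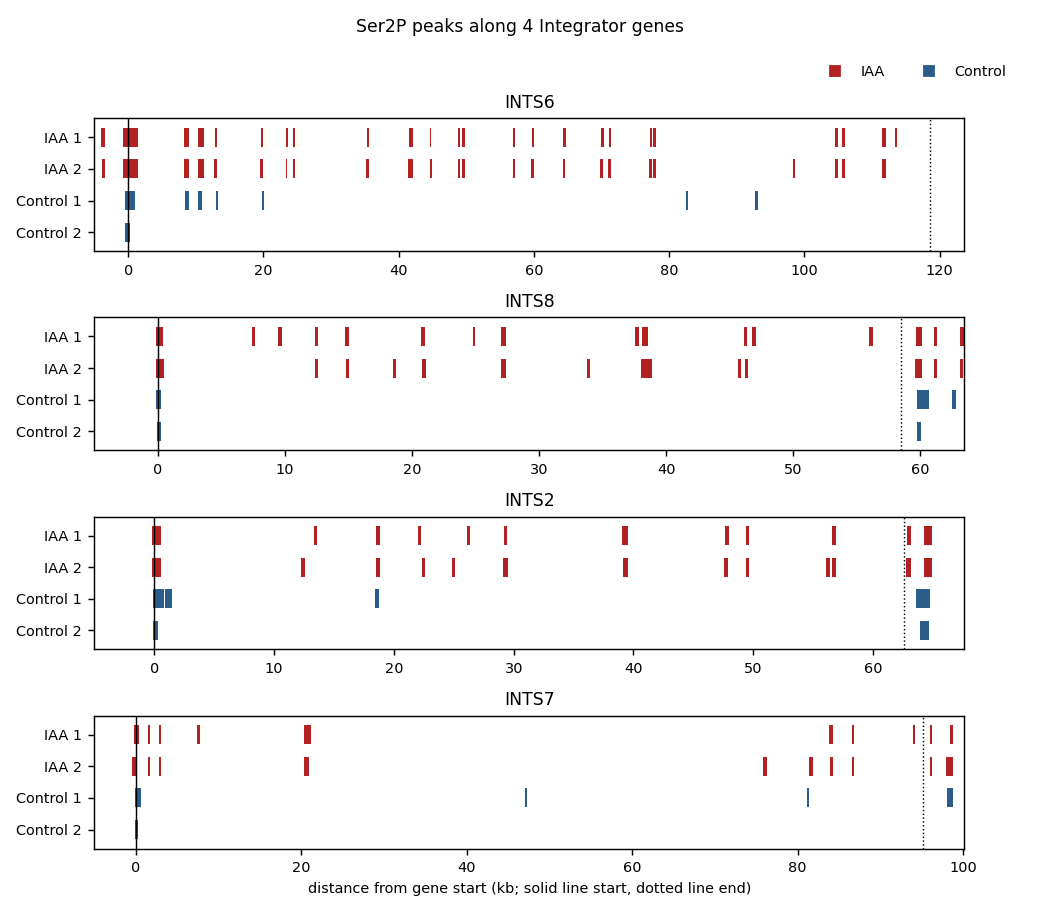
Ser2P peaks (bars, to scale) by distance from the gene start in kb along INTS6, INTS8, INTS2 and INTS7, in each IAA (red) and Control (blue) library, with the solid line at the gene start and the dotted line at its end. INTS6 holds 22 interior peaks in each IAA library, against 6 and 0 in the Control libraries.

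INTS6, the phosphatase anchor, held more of them than any other of the 10 genes in the IAA libraries, with 22 interior peaks in each, against 6 and 0 in Control. SERPINE3, a protein-coding gene on the other strand, lies within INTS6 between 88301 and 113345 bp from its start. Any INTS6 peak in that stretch can belong to either gene. INTS8 held 12 and 9 in IAA and 0 in both Control libraries. INTS2 held 9 and 10 in IAA and 2 and 0 in Control. INTS9 held 9 and 6 in IAA and 1 in each Control library, and INTS7 held 7 in each IAA library and 2 and 0 in Control. At INTS4, one of the longest genes of the set, there were 4 and 2 in IAA and 0 in Control. All lay beyond 100 kb from its start. There AAMDC, a protein-coding gene on the other strand, overlaps INTS4 from 88644 bp after its start onward. The INTS4 peaks can thus belong to either gene. INTS12 held 1 in each IAA library, at 6432 and 6435 bp from its start, and 0 in Control. INTS1 held 4 and 3 in IAA and 2 and 1 in Control, so that its groups differed by 1 peak at the nearest. INTS5 and INTS11, the 2 shortest genes, held 0 in every library.

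Of the 5 genes with no interior Ser2P peak in either Control library, 3 gained one in both IAA libraries (INTS4, INTS8 and INTS12), where 31.0% of all such genes did. Those counted at INTS4 also lie in AAMDC. The other 2 are INTS5 and INTS11. None of the 2 genes with interior peaks in both Control libraries (INTS1 and INTS9) lost them, where 1.04% of all such genes did. INTS11 was the 1 gene of the 10 without a Ser2P peak within 1 kb of a gene end in either Control library. It gained one in both IAA libraries, where 16.7% of genes without one in Control did. The summits of these peaks lay beyond the start of CPTP, so they can belong to that gene. Their ranks, 26461 and 34462, lay beyond the 15270 strongest peaks used for lists of equal length. The number of Ser2P peaks in the window was higher in IAA at 7 of 10 genes, against 64.1% of all genes. The covered share was higher at 9, all but INTS12, against 77.1%, and lower at 0, against 0.572%. The median covered share differed by 3.49 percentage points for the 10 genes and 3.02 for all genes. The counts of genes higher in peak number and covered share lay near the background. The interior gains, at 3 of 5 genes against 31.0%, rest on too few genes to be told apart from it. The share over all genes also takes in shorter genes, by the medians given above. The gain at a gene end rests on 1 gene. The median difference in peak number was 6.5 for the 10 genes and 2 for all genes, in genes with the greater median length given above.

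**Figure D4:**
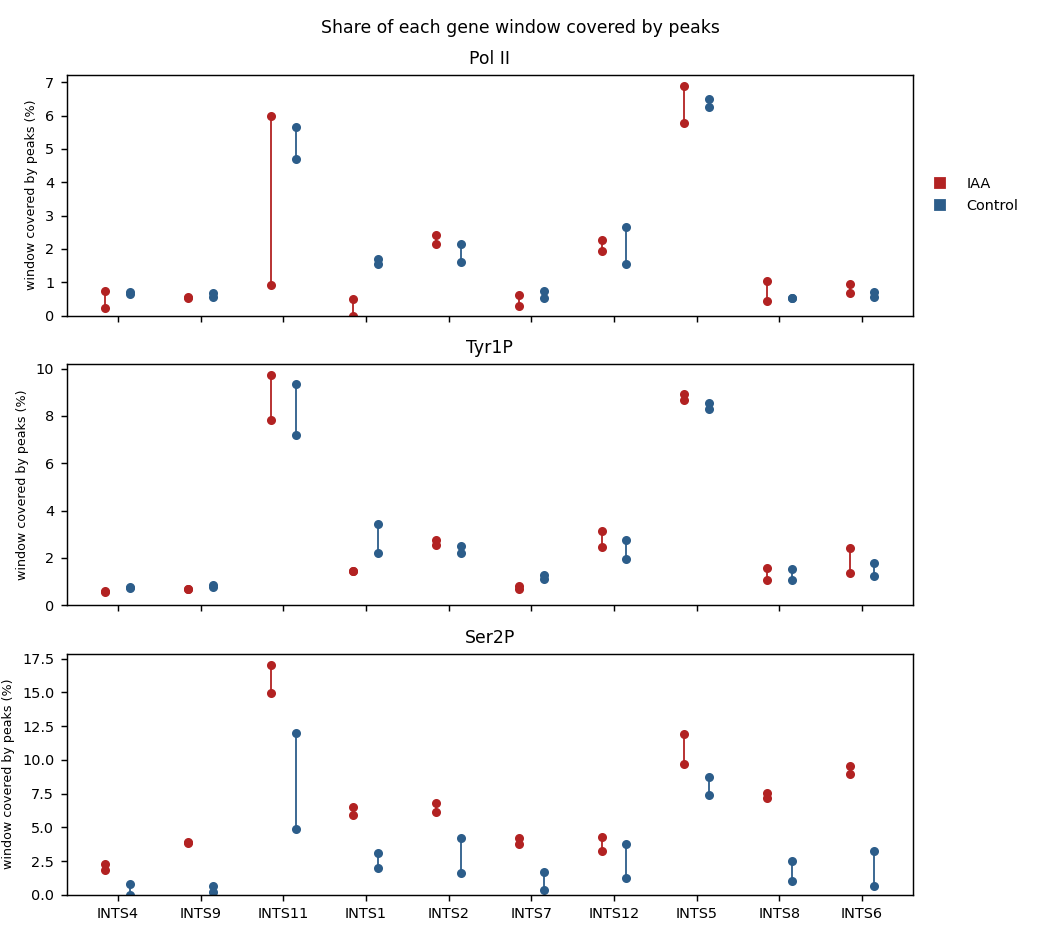
Percent of each gene window (gene and 5 kb on each side) covered by peaks, for Pol II, Tyr1P and Ser2P, in each IAA (red) and Control (blue) library, with the 2 libraries of a group joined by a line and a separate axis for each antibody. For Ser2P both IAA values lie above both Control values at every gene but INTS12.

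In both IAA libraries the covered share for Ser2P was largest at INTS11, at 14.9% and 17.0% in IAA and 11.96% and 4.84% in Control, where most of it lay in the flanks, by CPTP, PUSL1 and ACAP3. At INTS6 it was 8.94% and 9.54% in IAA and 3.21% and 0.637% in Control. At INTS8 it was 7.53% and 7.19% in IAA and 2.48% and 1.01% in Control. At INTS12 it was 4.28% and 3.28% in IAA and 3.78% and 1.25% in Control, which overlapped.

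The interior Ser2P peaks recurred at the same places in both IAA libraries. Of those in IAA replicate 1, 69.1% shared at least 1 bp with a peak of IAA replicate 2, and 78.3% the other way. Of the interior peaks of IAA replicates 1 and 2, 11.8% and 13.3% shared a base with a peak of either Control library. The Control libraries held 13 and 2 interior peaks, which keeps this share low wherever the peaks lie. At INTS6 the strongest interior peak lay 35457 and 35434 bp from the start in the 2 IAA libraries, with folds of 12.4 and 11.9, and neither Control library had a peak there. At INTS9 a peak 8453 and 8499 bp from the start was present in both Control libraries, with folds of 5.5 in each. Counted in 5 equal parts of the genes' interior from start to end, these peaks numbered 12, 15, 12, 9 and 20 in IAA replicate 1 and 9, 15, 10, 7 and 19 in IAA replicate 2. In Control replicate 1 the numbers were 6, 2, 1, 2 and 2, and in Control replicate 2 they were 1, 0, 0, 0 and 1. The median width of interior peaks in IAA was 294 and 348 bp, so the signal along these genes was called as short separate peaks. Of the interior peaks in IAA, 3 in each library overlapped a Pol II or Tyr1P peak of the IAA libraries.

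Cutting all 4 Ser2P lists to the 15270 strongest peaks ended these differences. Then 0 genes gained an interior peak, 2 lost one, and the covered share was higher at 2 genes and lower at 2. The counts thus depend on peaks beyond that rank. The part of list length in them was not tested further. No share of all genes was taken under this cut, so whether all genes changed alike was not tested.

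The 4 unnumbered Pol II libraries give a view of the same genes with 1 library per label and no replicate check. At INTS12 the summit lay 262 (EGF) and 260 bp (IAA+EGF) before the gene, on the GSTCD side, and 57 (IAA) and 40 bp (Control) inside it. At INTS5 the fold of the start peak was 10.8 (EGF), 11.4 (IAA+EGF), 16.4 (IAA) and 16.9 (Control), and its standing among 9166 genes with a start peak in all 4 was 79.0, 84.0, 96.9 and 97.2 in the same order. At INTS9 the standing was 54.6 (EGF), 46.5 (IAA+EGF), 25.1 (IAA) and 34.0 (Control). At INTS11 it was 33.9 (EGF), 41.2 (IAA+EGF), 37.7 (IAA) and 41.0 (Control). In these values of INTS12, INTS5 and INTS9, genes picked here after their values were seen, the library labelled EGF lay nearer to the numbered IAA libraries than the one labelled IAA did. At INTS7 the one labelled IAA lay nearer, with the summit at 65 bp, against -276 bp (EGF), and a standing of 62.8, against 57.4 (EGF). INTS4 went the same way as INTS7 in standing, at 53.0 (IAA) and 57.1 (EGF). At INTS2 the one labelled EGF lay nearer, with a summit at 80 bp, against 30 bp (IAA), and a standing of 97.2, against 98.9 (IAA). It also lay nearer in summit at INTS6, at 78 bp, against 30 bp (IAA). In standing it lay nearer at INTS8, at 89.4, against 95.5 (IAA), and at INTS11. The INTS11 summits of the 2 libraries differed little. Which of the differing labels is right was not tested. The ranked sets differ between numbered and unnumbered libraries. With the libraries labelled IAA and Control added to the numbered ones, 0 genes remained higher or lower in Pol II standing. In that comparison 1 summit lay further inside, and INTS1 was no longer without a peak in all IAA libraries. No share of all genes was taken for that comparison.

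The genes whose standing was most like that of INTS11 were taken over the 14 libraries in which INTS11 has a peak at an end, since both Ser2P Control libraries lack one. Among 9504 genes with such a peak in these 14 libraries, and outside 100 kb of INTS11, the smallest mean absolute differences were those of GNL3L (4.32 percentile points), MPV17L2 (4.70) and NAP1L4 (5.13). INTS11 itself ranged from 1.53 to 34.3, with a median of 20.0. GNL3L, a nucleolar GTPase gene, ranged from 2.31 to 30.6, with a median of 16.4. In the set of 7482 genes ranked in all 16 libraries, 6 of the 10 were present (INTS2, INTS5, INTS6, INTS7, INTS8 and INTS12).

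Another 13 genes of the complex and its partners were counted for comparison (INTS3, INTS10, INTS13, INTS14, INTS15, NABP1, NABP2, INIP, INTS6L, BRAT1, PPP2CA, PPP2CB and PPP2R1A). All 13 had a Pol II and a Tyr1P peak at a gene end in all 4 libraries of each antibody. Their Pol II standing was higher in IAA at 4, against 35.5% of all ranked genes, and lower at 7, against 35.9%. Their Tyr1P standing was higher at 4, against 35.6%, and lower at 5, against 36.9%. Their Pol II covered share was higher at 2, against 14.9% of all genes, and lower at 5, against 34.7%. For Ser2P the covered share was higher at 11, against 77.1%, and lower at 0, against 0.572%. Of the 9 with no interior peak in Control, 6 gained one (INTS3, INTS13, NABP1, BRAT1, PPP2CB and PPP2R1A), against 31.0% of all such genes.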

How the data were processed

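The deposited data are 1 peak list per library, 18 in all, so peaks were called per sample. The submitters' processing notes name MACS2 (2.2.7.1) and Bowtie2 (2.3.4.1), then Trim Galore (0.6.6), deepTools (3.5.1) and Picard (2.25.7), with the build hg38. Their settings, duplicate handling and any use of the inputs by the caller: not given in the sources used here. In each deposited list the authors give a score, a fold enrichment ratio, −log10 p and −log10 q and a summit offset for every peak. These are values within 1 list, so libraries were compared by presence, place, covered share and rank within a set of fixed size. Chromosomes 1 to 22 and X were used, and peaks sharing at least 1 bp with an input peak were removed. Genes came from RefSeq (GRCh38.p14), start to end with 5 kb on each side; an edge is within 1 kb of an end, and an interior needs a gene of at least 2 kb. All 10 genes are named. One marker gene of another cell type is not reported here. The genes, lists and measures were chosen with earlier results of these data known. Alternatives were a 1 bp overlap, a 500 bp edge, a 2 kb window, −log10 q of at least 5, lists of equal length, input peaks kept, each library left out, a replicate block and added unnumbered libraries, and, chosen after seeing the data, ranking by the start peak only, the 14 libraries used for INTS11 and the peak number. Python 3.11.15, pandas 2.3.3 and numpy 2.4.6 were used, and the counting was tested on simulated peaks.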

Additional observations from a re-analysis of the deposited data

How the results depend on the processing

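Of 245 recomputed counts of genes higher, lower, gained or lost, 212 stayed within 1.5 times the reported count. The recomputed counts cover the Integrator genes only, without a share of all genes. Whether all genes changed alike under these settings was not tested. Lists of equal length gave, for Ser2P, 2 genes higher and 2 lower in covered share, 1 higher in peak number, 1 lower in standing, 0 gained and 2 lost in interior peaks. For Pol II they gave 2 higher and 3 lower in covered share, the same as −log10 q of at least 5 (2 and 3), and a window of 2 kb gave 3 lower. Under equal length the Ser2P difference reversed in covered share at INTS4 (-0.133 percentage points), INTS9 (-0.218), INTS1 (-1.17), INTS2 (-0.322) and INTS7 (-0.0033), and in peak number at INTS4 (-0.5), INTS9 (-1) and INTS1 (-1.5). With an edge of 500 bp 1 gene lay further upstream for Tyr1P, and the difference at INTS9 reversed to 314.5 bp, since its upstream peak then falls outside the edge. With the start peak only, 1 gene was higher for Ser2P, and INTS5 reversed to -29.2 percentile points. Adding the unnumbered Pol II libraries labelled IAA and Control left 0 genes higher and 0 lower in standing, 0 lower in covered share, 1 further inside, 0 further upstream and 0 lost. For other changes the cause was not tested.

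Leaving out 1 library gave, for Pol II covered share, 0 to 6 genes higher and 1 to 6 lower (6 higher without IAA replicate 1, 6 lower without IAA replicate 2, 4 lower without Control replicate 1 and 3 higher without Control replicate 2). For Tyr1P it gave 2 to 6 higher in covered share, with 6 without Control replicate 2, and 3 to 5 higher in standing, with 5 without IAA replicate 2. For Ser2P it gave 3 to 6 genes gained in the interior, with 6 without Control replicate 1, and 2 to 5 lower in standing, with 5 without Control replicate 2. The replicate block, which asks for the same direction in both same-numbered pairs, gave 2 higher and 2 lower for Pol II covered share and 4 higher for Tyr1P covered share, and moved no other count by over 1.5 times. Deviations of same-numbered libraries correlated at 0.234 for Pol II, 0.0110 for Tyr1P and -0.0831 for Ser2P, so the numbers are not taken to pair the libraries.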
